A study of Arabidopsis thaliana with 6 samples.

Results

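COR15A (AT2G42540), COR15B (AT2G42530), RD29A (AT5G52310, LTI78 in RefSeq) and KIN1 (AT5G15960) are Arabidopsis thaliana genes whose RNA accumulates in the cold and after treatment with abscisic acid, the hormone of drought and seed dormancy. They were chosen by locus name, with their wild-type and mutant signals from these arrays already known, and were read on a custom Agilent array, which carries 3 probes for each of them: 4 of the 5154 transcript names and 12 of the 15013 probes on the array. The array was made mainly to measure long intergenic noncoding RNAs, and was hybridised with RNA of inflorescences from 3 wild-type samples of the Col-0 ecotype and 3 samples of an rdr2 mutant. RDR2, an RNA-dependent RNA polymerase, copies transcripts of RNA polymerase IV into double-stranded RNA, the source of small interfering RNAs that direct DNA methylation.

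All plants were 4 weeks old and were kept at 22 °C under 16 h of light and 8 h of dark, on MS medium or in a greenhouse, so no sample of either group was labelled as cold-treated or hormone-treated. Each sample was a pool of open flowers, buds and some very young siliques, labelled as a biological replicate, and 0.5 µg of total RNA treated with DNase was labelled with Cy3. The mutant samples carry an rdr2 allele in the Col-0 background: the titles give no allele, the protocols give rdr2-1, and the genotype field gives rdr2-1, rdr2-2 and rdr2-3 for replicates 1, 2 and 3. They were kept as 1 group, as titled. In such whole-tissue RNA, fewer cells of a type that expresses a gene and less RNA per cell cannot be told apart. None of the 17 floral and 7 leaf marker genes listed for a check of the tissue has a probe on the array, so the tissue could not be checked with them.

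Cold-responsive genes of this kind are switched on by CBF transcription factors (also called DREB1), which bind a short promoter element named CRT or DRE. Abscisic acid acts through receptors that inhibit protein phosphatases such as ABI1 and ABI2, which frees SnRK2 kinases to activate transcription factors such as ABI5 that bind another element, ABRE. COR15A and COR15B, a tandem pair on chromosome 2, encode small hydrophilic proteins of the chloroplast that stabilise membranes during freezing. RD29A encodes a hydrophilic protein, and its promoter, which holds both kinds of element, is a standard reporter of cold, drought and salt stress. KIN1 encodes a small hydrophilic protein and stands beside its close copy KIN2 on chromosome 5. RD29A, also on chromosome 5, stands beside RD29B (LTI65 in RefSeq), a related gene that responds chiefly to abscisic acid. The sequences of the array's probes were not used here, so whether a probe of COR15A also binds COR15B RNA, or a probe of KIN1 binds KIN2 RNA, was not tested.

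The arrays gave these values on a scale called scaled signal: the background-subtracted intensity of a probe divided by the 75th percentile of that array's bright probes (the 2369 that stood well above background on each of the 6 arrays), times 100. It ranks samples within a probe and does not rank probes or genes against each other. Between 17.56% and 37.9% of probes were well above background on an array, and the 75th percentile intensity was 305 to 371 on the wild-type arrays and 155 to 285 on the mutant arrays. Wild-type replicates 1 and 2 shared a slide, as did mutant replicates 1 and 2, and each of the 4 slides held 1 group, so slide and genotype cannot be told apart. RDR2 itself fell on 3 of 3 probes in the mutant. At its probe with the smallest p, the mean scaled signal dropped from 410 ± 39.0 to 63.2 ± 2.73 (SD, n = 3 arrays a group), a log2 difference of -2.69 (SE 0.125, limma adjusted p = 0.000168).

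The 4 genes differed in direction between the mutant and the wild type. COR15B was lower in the mutant on both of its bright probes, while KIN1 was higher on both probes that gave a signal. COR15A differed little on its first probe, and its 2 other probes were higher, 1 of them through a single wild-type array. RD29A showed no separation of the groups on any of its 3 probes. Since the genes were chosen with these values known, the wild type against mutant values below are a description and carry no test. Probes of a gene are called A, B and C in the order of the array's probe numbers.

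Counted over the 4 genes, 11 of 12 probes passed the filter on dim probes, which asks for a signal well above background on each array of the wild type, of the mutant or of both. At 5 of the 11 the groups did not overlap, 3 with the mutant higher (COR15A B, KIN1 A and KIN1 C) and 2 with it lower (COR15B A and B). Among all 3345 probes that passed, 38.8% did not overlap, 12.2% with the mutant higher and 26.6% with it lower. In the limma fit over all probes at an adjusted p of 0.05, COR15B probe B was among the lower calls and KIN1 probe C among the higher calls. Over the 16 alternatives COR15B probe B was called under 4 and KIN1 probe C under 6, and neither with slide as a random block. The fit as reported called 13.6% of probes (455), 5.11% higher (171) and 8.49% lower (284). The choice of the genes used this comparison, so nothing is read from their count.

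**Figure D1:**
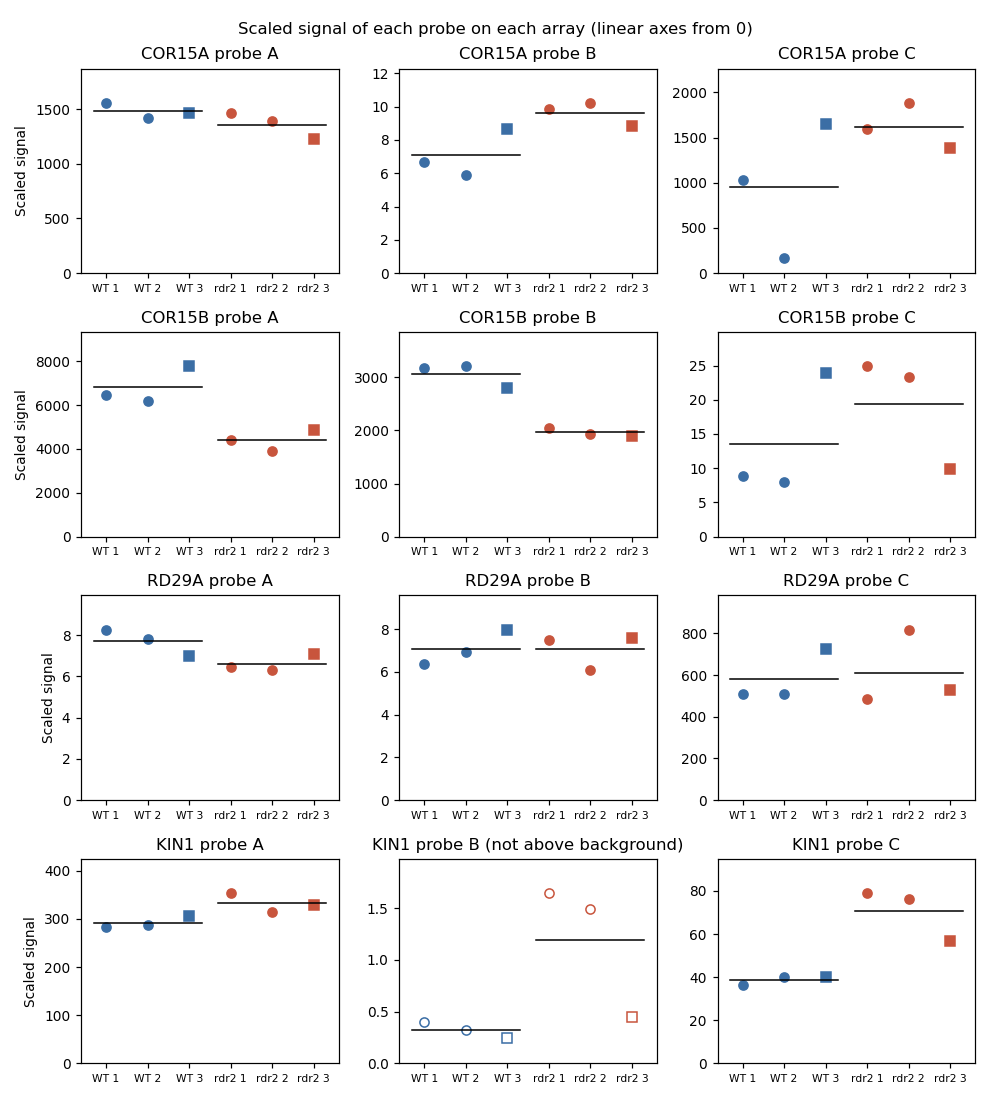
Scaled signal (linear vertical axes from 0) of each of the 12 probes of COR15A, COR15B, RD29A and KIN1 on the 3 wild-type (blue) and 3 rdr2 mutant (red) arrays; lines are group means, squares mark the array of each group on a slide of its own, and open symbols mark the probe that was not well above background. The mutant arrays lie below the wild-type arrays at COR15B probes A and B and above them at KIN1 probes A and C, and wild-type replicate 2 stands far below the other arrays at COR15A probe C.

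COR15B, which precedes COR15A in gene order, had the clearest lower values. At probe A, the scaled signal was 6453, 6193 and 7785 on the arrays of wild-type replicates 1, 2 and 3, against 4426, 3918 and 4853 on those of mutant replicates 1, 2 and 3. Every mutant array lay below every wild-type array. The group means were 6810 ± 854 and 4399 ± 468 (SD, n = 3 each), a log2 difference of -0.63 (SE 0.153), or 1.55-fold lower in the mutant. At probe B, the scaled signal was 3185, 3213 and 2799 for the wild type, compared with 2055, 1940 and 1905 for the mutant. The groups were again apart, with the mutant values close together. The log2 difference was -0.64 (SE 0.119), 1.56-fold lower, from 3065 ± 231 to 1966 ± 78.5 (SD, n = 3 each).

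Probe A and probe B of COR15B kept step with each other. Their log2 ratio within an array was 1.02, 0.95 and 1.48 on the wild-type arrays, against 1.11, 1.01 and 1.35 on the mutant arrays, with overlapping groups and a difference of 0.01 between the group means. With no overlap between the groups, differences between slides had to be negative at both probes, and are given only for their size. At probe A, the 2 mutant arrays on a shared slide minus the 2 wild-type arrays on theirs gave a mean log2 difference of -0.60. Mutant replicate 3 minus wild-type replicate 3, each on a slide of its own, was -0.68. At probe B the same differences were -0.68 and -0.56.

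COR15B probe C was dim on every array and did not follow the other probes of the gene. Its scaled signal was 8.89, 7.94 and 23.9 for the wild type, compared with 24.9, 23.3 and 9.83 for the mutant. The groups overlapped, and replicate 3 of each group lay on the far side from replicates 1 and 2 of that group. The log2 difference of the group means was 0.59 (SE 0.566), made of 1.52 between the arrays that share slides and -1.28 between the replicates on slides of their own. With probe C included, the mean over the gene's 3 probes was -0.23, beside the -0.63 and -0.64 of the bright probes.

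COR15A, the neighbour of COR15B, had a bright probe that stayed close between the groups. At probe A, the scaled signal was 1559, 1420 and 1460 on the wild-type arrays, against 1461, 1388 and 1226 on the mutant arrays. The groups overlapped, with mutant replicate 3 the lowest array. Mutant minus wild type was -0.13 on the log2 scale (SE 0.125), from 1479 ± 71.7 to 1358 ± 120 (SD, n = 3 each). Its direction depends on how the arrays are scaled: it turned to 0.10 with the median of the tested probes and to 0.49 with the 75th percentile of all probes.

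The dim probe B of COR15A was higher in the mutant. Its scaled signal was 6.65, 5.87 and 8.67 for the wild type, compared with 9.85, 10.2 and 8.83 for the mutant. The groups did not overlap, but wild-type replicate 3 and mutant replicate 3 nearly touched. This came to a log2 difference of 0.46 (SE 0.181), with 0.68 between the arrays on shared slides and 0.03 between the third replicates.

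COR15A probe C gave the largest difference of any of the 11 probes, and 1 array made most of it. Its scaled signal was 1032, 164 and 1648 on the wild-type arrays, against 1598, 1887 and 1382 on the mutant arrays. Wild-type replicate 2 stood far under the rest, and the other 5 arrays overlapped between groups. Mutant minus wild type was 1.30 on the log2 scale (SE 0.865) with all arrays and 0.30 without wild-type replicate 2. The difference was 2.08 between the arrays on shared slides, which include the low array, and -0.25 between the third replicates, the opposite direction. Without that array, the mean over COR15A's 3 probes was 0.16 in place of 0.55.

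The low value of wild-type replicate 2 at COR15A probe C belongs to a single spot. Replicates 1 and 2 of the wild type shared a slide and differed at this spot by -2.66 on the log2 scale, the largest size among the 2369 bright probes, where the next was 1.87 and the SD over probes was 0.258. The other 10 tested probes of the 4 genes differed between these 2 arrays by at most 0.18 in size. The 22 bright spots within 6 rows and 6 columns of it had a median difference of -0.04, between -1.32 and 0.28. The spot was not marked as uneven by the scanner software, its raw median intensity was 454 against a local background of 15.0, and the authors' deposited log2 table holds the same gap, 8.74 against 11.36 and 11.99 in replicates 1 and 3. What lowered this spot was not tested.

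**Figure D2:**
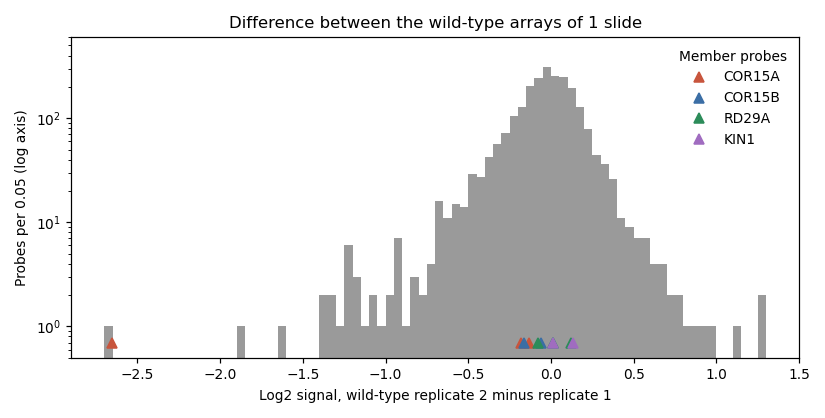
Number of bright probes (log vertical axis) by the log2 signal of wild-type replicate 2 minus replicate 1, the 2 wild-type arrays of a shared slide; triangles mark the 11 tested probes of the 4 genes. COR15A probe C stands alone at -2.66, and the other 10 lie within 0.18 of 0.

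COR15A and COR15B, neighbours known to be induced together in the cold, differed unequally between the groups at the probes compared here, with the processing used here. The log2 ratio of COR15A probe A to COR15B probe A within an array, which needs no scaling between arrays, was -2.05, -2.13 and -2.41 for the wild type, compared with -1.60, -1.50 and -1.98 for the mutant. All 3 mutant ratios were above all 3 wild-type ratios, by 0.50 on average. Against COR15B probe B the ratio was -1.03, -1.18 and -0.94 on the wild-type arrays, against -0.49, -0.48 and -0.64 on the mutant arrays. These groups were also apart, by 0.51. The ratios are of single probes and do not say which of the 2 genes changed. They also depend on how intensities are corrected. With quantile normalization COR15A probe A stood at -0.09, beside -0.31 and -0.55 for COR15B probes A and B. After normexp background correction it stood at -0.35, between the -0.28 and -0.47 of those probes.

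KIN1, the small hydrophilic protein gene, was higher in the mutant on both measured probes, by unequal amounts. At probe C, the scaled signal was 36.5, 40.0 and 39.9 for the wild type, compared with 79.1, 76.2 and 56.9 for the mutant. Every mutant array lay above every wild-type array, with replicate 3 the lowest of the mutant. The means were 38.8 ± 2.00 and 70.7 ± 12.1 (SD, n = 3 each), a log2 difference of 0.85 (SE 0.167), 1.81-fold higher. The difference was 1.02 between the arrays on shared slides and 0.51 between the third replicates.

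At KIN1 probe A, the scaled signal was 284, 287 and 306 on the wild-type arrays, against 354, 315 and 330 on the mutant arrays. The groups did not overlap, and their gap was small. The log2 difference was 0.19 (SE 0.114), 1.14-fold higher, from 292 ± 11.9 to 333 ± 19.5 (SD, n = 3 each). The log2 ratio of probe C to probe A within an array was -2.96, -2.84 and -2.94 for the wild type, compared with -2.16, -2.05 and -2.54 for the mutant. With the processing used here, the 2 probes of KIN1 therefore differed in their change, by 0.67 with no overlap between the groups. The size of both changes depends on how intensities are corrected and scaled. Before scaling, probe C read 134, 122 and 148 on the wild-type arrays and 128, 118 and 162 on the mutant arrays, with overlap. After quantile normalization probe A stood at 0.05 and probe C at 0.96, and after normexp background correction at 0.09 and 0.59. KIN1 probe B was not well above background on any of the 6 arrays, and no fold is given for it.

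RD29A, the stress reporter gene, did not separate the groups. At its bright probe C, the scaled signal was 507, 512 and 723 on the wild-type arrays, against 486, 819 and 528 on the mutant arrays. The highest and the lowest array were both mutant arrays, and those 2 arrays shared a slide. The means differed by 0.05 on the log2 scale (SE 0.262), from 581 ± 124 to 611 ± 181 (SD, n = 3 each). The difference was 0.31 between the arrays on shared slides and -0.45 between the third replicates. Without wild-type replicate 3 it was 0.22, and its range over the 6 arrays left out in turn was -0.18 to 0.22.

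The other 2 probes of RD29A were dim. At probe A, the scaled signal was 8.27, 7.84 and 6.99 for the wild type, compared with 6.46, 6.31 and 7.07 for the mutant, a log2 difference of -0.22 (SE 0.126). At probe B, it was 6.37, 6.92 and 7.98 on the wild-type arrays, against 7.47, 6.11 and 7.61 on the mutant arrays, a log2 difference of -0.01 (SE 0.155). The groups overlapped at both probes. The directions of all 3 RD29A probes changed with the scaling: probe A ranged from -0.22 to 0.39 over 6 scalings, probe B from -0.01 to 0.61 and probe C from -0.50 to 0.67.

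The split of all calls itself moved with the scaling, from 171 higher and 284 lower to 172 and 146 after quantile normalization, 171 and 138 in the authors' deposited values, 183 and 143 with the median, 227 and 242 after normexp background correction, and 125 and 36 with the 75th percentile of all probes. Under the scaling used here the median probe differed by -0.26 between the groups, and under the others by between -0.03 and 0.35. Changes are therefore also given relative to the median probe. There the scaling used here, the median and the 75th percentile of all probes give equal values by construction, since each divides an array by a single factor. The deposited values are close to those of quantile normalization. Agreement under 6 of 6 scalings is therefore not that of 6 separate checks. On that footing COR15B probes A and B were lower under 6 of 6 scalings, at -0.37 to -0.26 and at -0.53 to -0.38. KIN1 probe C was higher under 6 of 6, by 0.61 to 1.11, and KIN1 probe A by 0.07 to 0.45. COR15A probe A and RD29A probe C changed side. The other 5 probes were above the median probe under 6 of 6: RD29A probe A by 0.04 to 0.27, RD29A probe B by 0.08 to 0.55, COR15A probe B by 0.21 to 0.99, COR15B probe C by 0.37 to 1.01, and COR15A probe C, with the low spot in it, by 0.99 to 1.56.

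**Figure D3:**
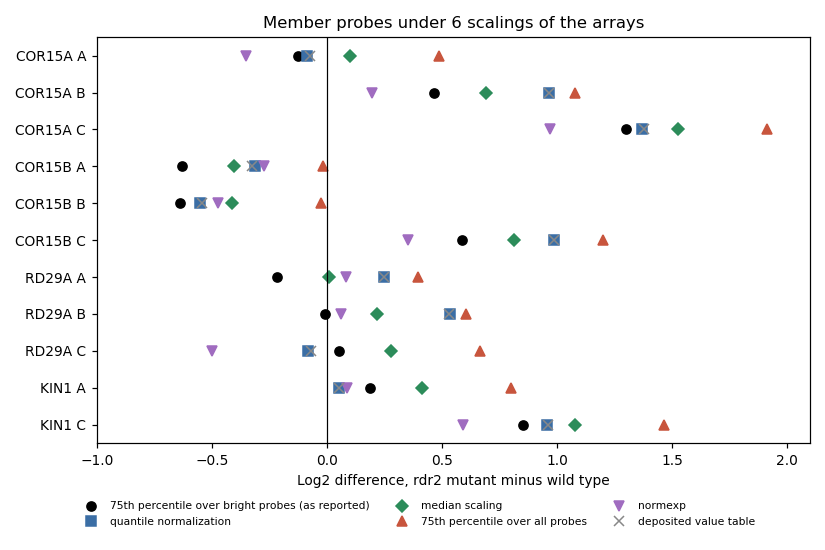
Log2 difference (mutant minus wild type) of the 11 tested probes of the 4 genes under 6 scalings of the same arrays; the circle is the value reported here. COR15B A and B stay at or below 0 (-0.02 and -0.03 at their highest) and KIN1 C stays at 0.59 or above, while COR15A A and all 3 RD29A probes cross 0.

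Few other genes of the cold and abscisic acid pathways have probes on this array: 1 of 24 listed cold response genes and 5 of 30 listed abscisic acid genes. None of their 15 tested probes passed the adjusted threshold of the limma fit in either direction, and none had an unadjusted p under 0.05, against 1110 of all 3345 probes. Their median log2 difference was -0.16, beside -0.26 for all tested probes and 0.05 for the 11 probes of the 4 genes. The CBF factors, KIN2, RAB18 and the SnRK2 genes of the lists were not measured.

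COR47, a dehydrin gene induced by cold together with the COR15 genes, gave scaled signals of 46.8, 39.6 and 52.8 for the wild type, compared with 34.4, 40.7 and 42.3 for the mutant at its probe with the smallest p. The groups overlapped, and the log2 difference was -0.24 (SE 0.163, limma adjusted p = 0.333), turning to 0.37 with the 75th percentile of all probes. Its 3 probes lay between -0.25 and -0.16. RD29B, the neighbour of RD29A, had scaled signals of 5.44, 3.86 and 6.64 on the wild-type arrays, against 11.1, 13.5 and 3.19 on the mutant arrays at that of its probes with the smaller p. Mutant replicate 3 was the lowest of the 6 arrays and the other 2 mutant arrays the highest. The log2 difference was 0.59 (SE 0.587, limma adjusted p = 0.505), and 1.24 without mutant replicate 3 (adjusted p = 0.0428). Over the 16 alternatives its adjusted p ran from 0.0428 to 0.932.

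ABI5, the transcription factor that binds ABRE elements, differed by -0.25 at its probe with the smallest p (SE 0.104, limma adjusted p = 0.154). The scaled signal there was 1515, 1492 and 1487 for the wild type, compared with 1260, 1273 and 1235 for the mutant. The groups were apart, by about as much as the median probe. ABI1, a phosphatase that holds the pathway off, differed by -0.34 (SE 0.161, adjusted p = 0.202) with overlapping groups, and by -0.48 without mutant replicate 3 (adjusted p = 0.0393). Over the 16 alternatives its adjusted p ran from 0.0393 to 0.829. ABI4, another transcription factor of the pathway, was measured on 1 dim probe at -0.34 (SE 0.541, adjusted p = 0.675), and its direction changed with the scaling, as did those of ABI5 and ABI1. ABI2, a phosphatase close to ABI1, lay between -0.09 and 0.04 on its 3 probes.

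**Figure D4:**
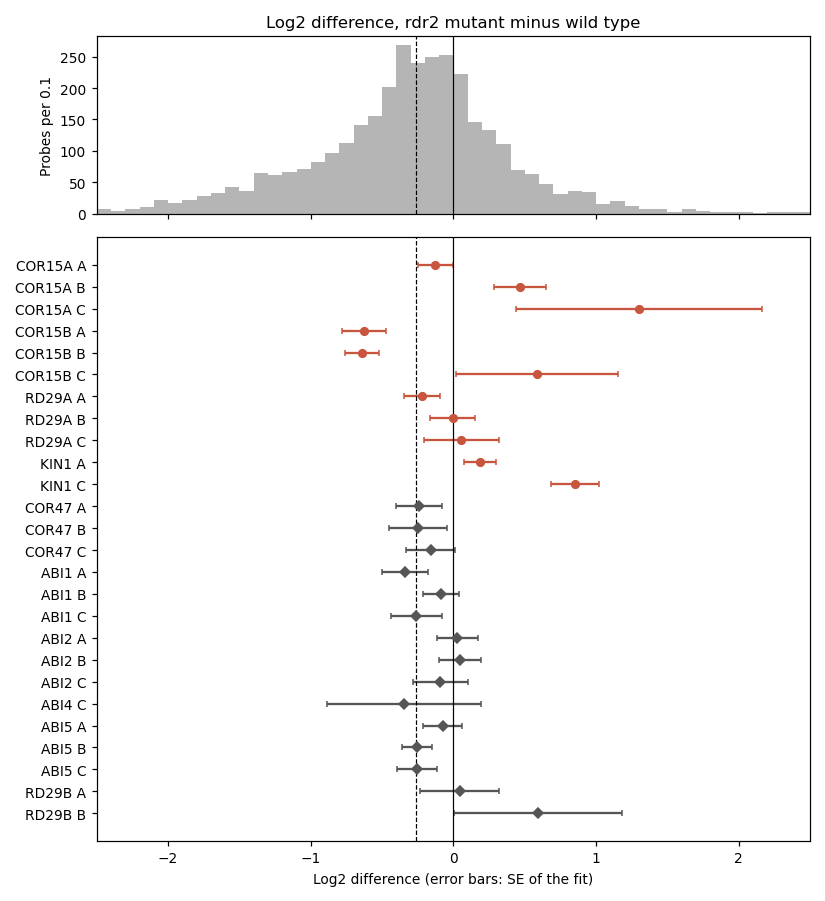
Log2 difference (mutant minus wild type, error bars SE of the limma fit, 3 arrays a group) of the 11 tested probes of the 4 genes (circles) and of the 15 tested probes of other listed cold and abscisic acid genes (diamonds), under a histogram of all 3345 tested probes, of which 68 lie beyond 2.5 on either side. The dashed line is the median probe at -0.26; the COR15B bright probes lie to its left and KIN1 C to its right at 0.85, and the diamonds lie between -0.34 and 0.59.

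Seed maturation genes, markers here of the young siliques in the samples and partly under abscisic acid control, were lower in the mutant for 2 of the 4 genes tested. Of 14 listed, 5 have probes, and 9 probes were tested. Over the whole array, 16.5% of the 1862 tested transcripts had at least 1 probe called in either direction, and 8.49% of probes were called lower. FUS3, a master regulator of seed maturation, fell on 3 of 3 probes, with a log2 difference of -1.79 at that with the smallest p (SE 0.126, limma adjusted p = 0.000938). There the scaled signal was 70.3, 81.6 and 75.3 on the wild-type arrays, against 21.7, 20.4 and 23.6 on the mutant arrays. EM1, a late embryogenesis protein gene, fell on 2 of 2 tested probes, with a log2 difference of -0.64 at that with the smaller p (SE 0.119, adjusted p = 0.0246). The FUS3 call held under 13 of 16 alternatives and the EM1 call under 2 of 16, and EM1 stood at -0.03 with the 75th percentile of all probes. ABI3 (-0.84, adjusted p = 0.272) and LEC1 (-0.08, adjusted p = 0.808) did not pass the threshold, and EM6 was too dim to test. The summed scaled signal of the 9 probes was 223 to 242 in the wild type and 81.6 to 102 in the mutant. FUS3 made up most of this sum in the wild type, and the sum weights bright probes most. Over the 6 probes of the other genes it was 54.4 to 64.6 on the wild-type arrays and 36.6 to 42.6 on the mutant arrays. EM1 made up most of that smaller sum on every array, while the log2 differences of the 3 LEC1 probes lay between -0.08 and -0.04. Whether the share of siliques in a sample bears on COR15A, COR15B, RD29A or KIN1 was not tested.

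Clock genes, which set the daily rhythm of the CBF pathway, were measured on 18 probes of 6 of 11 listed genes, and none passed the threshold. PRR7, PRR5, PRR9 and TOC1, transcriptional repressors of CCA1 and LHY, differed by -0.60, -0.40, -0.38 and -0.27 at their probes with the smallest p, with limma adjusted p of 0.0677, 0.0762, 0.139 and 0.199. With the 75th percentile of all probes all 4 of these values turned above 0, and PRR7 passed the threshold under 1 of 16 alternatives, PRR5 and PRR9 under 2 each and TOC1 under 0. The log2 differences of the 18 probes ranged from -0.60 to 0.20, with a median of -0.24 beside -0.26 for all tested probes. LHY and CCA1, the morning factors, lay at 0.16 (adjusted p = 0.328) and 0.04 (adjusted p = 0.859). Relative to the median probe, PRR7, PRR5, PRR9 and TOC1 lay at -0.35, -0.15, -0.12 and -0.01, and LHY and CCA1 at 0.42 and 0.30. The hour of harvest is not given in the labels, and its part in the values was not tested.

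The mean log2 profile of the 11 probes over the 6 arrays was high in wild-type replicate 3 (0.21 above its own mean) and mutant replicates 1 and 2 (0.15 and 0.16), and low in wild-type replicate 2 (-0.36). Most of that low came from the single spot at COR15A probe C: over the other 10 probes, wild-type replicate 2 stood at -0.14, wild-type replicate 1 and mutant replicate 3 at -0.10 each. The nearest transcripts were picked on the profile with the spot in it. The 5 transcripts with the nearest profile by root mean square difference were PIN3 (AT1G70940, an auxin transporter gene, 0.02), AT2G13431, AT2TU036480, AT4G37225 and FHY1 (AT2G37678, a gene of far-red light signalling, 0.10), where the median over all other tested probes was 0.44. PIN3 had scaled signals of 266, 225 and 326 for the wild type, compared with 313, 306 and 272 for the mutant. COR15B, whose mean over probes lies in the other direction, was nearest to AT5TU070670, AT2G45315, AT5TU031790, AT2G46572 and AT3TU038180, at 0.07 to 0.10. That mean profile, which stood at 0.47 in wild-type replicate 3 and -0.37 in mutant replicate 3, carries the dim probe C and is unlike that of the bright probes. Probes A and B alone stood at 0.29 to 0.35 on the wild-type arrays and at -0.41 to -0.27 on the mutant arrays, and no transcripts were matched to them. RD29A was nearest to AT5G66558, AT4TU018760, AT3G22072, AT3G52605 and AT3G48115, at 0.02 to 0.05. These likenesses rest on 6 arrays that share slides, and are given as a description.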

How the data were processed

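Per the file headers, the authors' scans are 1-colour, and Agilent Feature Extraction turned them into values, in version 10.7.3.1 for mutant replicate 3 and in version 10.5.1.1 for the other 5 arrays. The processed signal they deposited is an intensity after background subtraction, and their deposited value table is in log2 units. Rebuilding it from the processed signals, with a floor of 1 and quantile normalization, gave 98.1% to 99.97% of each array's values within 0.1. No feature was saturated.

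Here, each array's log2 processed signals were taken relative to the log2 of the 75th percentile of its bright probes. Probes well above background on 3 of 3 arrays of either group entered a limma fit of group alone (lmFit, then eBayes, limma 3.58.1, R 4.3.3), with Benjamini-Hochberg adjustment over all 3345. The procedure was tried on simulated data whose noise was independent between arrays. In that trial a 2-fold change passed the threshold in 48.45% of cases, so a probe that did not pass may still differ by that much. On the real arrays the correlation within a slide was 0.77 in the fit with slide as a random block. The trial therefore does not show how the fit behaves with shared slides. The number of arrays limits the precision. The p-values measure the spread between samples labelled as biological replicates, of which 2 in each group share a slide. They come from a fit that treats all arrays as independent, and do not allow for the correlation within a slide. With slide as a random block, 112 probes were called in place of 455.

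Genes were named through the array's locus names and RefSeq's TAIR10.1 gene table. The array's own build differs, so no coordinates are given. The 4 genes and the lists were chosen with earlier results of these data known. Named besides the 4 genes were RDR2, every listed gene with a tested probe and the 5 transcripts nearest in profile. Values were given for at most 4 genes per list, those with the smallest p, and also for the clock genes LHY and CCA1. Each result was recomputed under 16 alternatives: other scalings, normexp with offset 50, the deposited table, slide or replicate number as a block, shared-slide arrays averaged, other filters on dim probes, and each array left out.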

Additional observations from a re-analysis of the deposited data

How the results depend on the processing

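The mean log2 difference over a gene's tested probes was 0.55 for COR15A, -0.23 for COR15B, -0.06 for RD29A and 0.52 for KIN1. With the 75th percentile of all probes these became 1.16, 0.39, 0.56 and 1.13, a shift that moves all probes alike. RD29A was 0.23 after quantile normalization, 0.17 with the median and 0.24 in the deposited values. KIN1 was 0.75 with the median, 0.34 after normexp and 0.91 with no filter, which adds its probe under background. Leaving out 1 array at a time gave 0.16 to 0.82 for COR15A (lowest without wild-type replicate 2), -0.33 to -0.05 for COR15B and -0.09 to 0.01 for RD29A (both highest without wild-type replicate 3), and 0.45 to 0.60 for KIN1. At single probes, COR15A B and C, COR15B A, B and C, and KIN1 A and C kept their direction under 16 of 16 alternatives, COR15A A under 14, and RD29A A, B and C under 11, 9 and 8. These counts include the other filters on dim probes and the replicate block, which cannot change a probe's log2 difference. None of the 16 alternatives compares the third replicates alone, where COR15A C was -0.25 and COR15B C -1.28.

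Of all probes, 171 were called higher and 284 lower. The lower count was 146 after quantile normalization, 36 with the 75th percentile of all probes, 143 with the median and 138 in the deposited values. Higher and lower counts were 57 and 55 with slide as a random block, 29 and 16 with shared-slide arrays averaged, 39 and 20 with no filter, 45 and 34 with a filter on 1 array, and 77 to 277 and 75 to 770 with 1 array left out (most higher calls, 277, without mutant replicate 3; most lower calls, 770, once wild-type replicate 3 was dropped; fewest of both without wild-type replicate 2). With the replicate block they were 58 and 71. Deviations of same-numbered samples correlated at -0.07, 0.02 and -0.02, which shows no pairing by number. The deviations also carry the shared slides, and whether same-numbered samples were handled together was not tested. Of the other listed pathway genes, 2 were called lower after normexp, and 0 to 1 higher and 0 to 1 lower with 1 array left out (RD29B and ABI1, each without mutant replicate 3).

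Reversed directions with the 75th percentile of all probes were COR47 at 0.37, ABI5 at 0.36, ABI1 at 0.28, ABI4 at 0.27, LEC1 at 0.53, PRR7 at 0.0079, PRR5 at 0.21, PRR9 at 0.23 and TOC1 at 0.34. ABI4 was also at 0.23 after quantile normalization and in the deposited values, 0.026 after normexp, and from -0.83 to 0.061 with 1 array left out (highest without mutant replicate 3). LEC1 was at 0.55 after quantile normalization and in the deposited values, 0.15 with the median, 0.077 after normexp, and from -0.22 to 0.11 with 1 array left out (highest without mutant replicate 1). Beyond the scaling itself, the cause was not tested. Signal near background limits COR15A B, COR15B C, RD29A A and B, and KIN1 B.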

Other observations

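At some dim probes of these genes and their neighbours, replicate 3 of a group stood far from replicates 1 and 2. Replicate 3 differs from that pair in sample as well as slide. Each mutant replicate has its own genotype entry. Mutant replicate 3 also differs in software version and median background intensity, 27.0 against 13.0 to 15.0 on the other arrays. These cannot be told apart here. COR15B probe C in wild-type replicate 3 was 1.51 above the mean of replicates 1 and 2 on the log2 scale, and mutant replicate 3 minus the mean of its pair was -1.29. Over all tested probes, the median size of such a gap was 0.28 among wild-type arrays and 0.35 among mutant arrays. The dim probe of RD29B gave 11.1 and 13.5 on the mutant pair that shares a slide and 3.19 on mutant replicate 3. KIN1 probe B, which was under background on each array, had scaled signals of 0.25 to 1.65, values that carry no order.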
